A study of Macaca mulatta with 2 samples.

Results

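The genes described here are *RARRES2*, *CMKLR1*, *FPR1*, *LTB4R*, *GPR18*, *GPR37*, *GPR37L1* and *LGR6*, that is, the ligand chemerin and 7 cell surface receptors that have been linked to pro-resolving mediators other than the lipoxins. They were picked by gene symbol, with earlier results of these data known, and all 8 were among the 16684 genes listed. The data were bulk RNA-seq of wild-type, untreated optic nerves of *Macaca mulatta*, 1 condition with 2 libraries named Rep1 and Rep2. The methods of the study give a 12-year-old male as the source, whereas the description of the deposited data gives nerves from different macaques, so the libraries may share an animal, and their spread may be partly technical. The nerves were taken after death and are whole tissue, in which a smaller number of cells of a type and less RNA per cell cannot be told apart.

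Resolution of inflammation is an active process in which lipid mediators made from polyunsaturated fatty acids, such as resolvins, protectins and maresins, signal through G protein-coupled receptors. CMKLR1 responds to resolvin E1 and to the peptide chemerin, and LTB4R, the high-affinity receptor of the neutrophil attractant leukotriene B4, is blocked by resolvin E1. GPR18 has been proposed as a receptor of resolvin D2, GPR37 of neuroprotectin D1 and LGR6 of maresin 1, and FPR1 binds formyl peptides of bacteria and mitochondria as well as peptides of annexin A1. GPR37 and GPR37L1 are also known in glia, the former mainly in oligodendrocytes and the latter mainly in astrocytes, and both have been linked to prosaposin.

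Several of these receptors have close relatives, and reads lying wholly in a stretch that relatives share could be counted for either gene. The coding sequences of the RefSeq transcripts of Mmul_10 are shown for the longest stretch shared by *FPR1* and *FPR2*, and by *GPR37* and *GPR37L1*, the former because it was the most similar pair compared and the latter because it holds the receptors with the highest mean levels. The shared run is in capitals, with 20 bases on either side.
FPR1: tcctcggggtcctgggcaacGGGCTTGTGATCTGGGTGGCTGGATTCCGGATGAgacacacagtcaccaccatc
FPR2: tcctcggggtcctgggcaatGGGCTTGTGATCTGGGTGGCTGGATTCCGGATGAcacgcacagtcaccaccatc
GPR37: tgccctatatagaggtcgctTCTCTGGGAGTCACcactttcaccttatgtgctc
GPR37L1: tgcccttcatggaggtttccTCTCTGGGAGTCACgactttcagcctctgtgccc
*FPR1* and *FPR2* were 76.5% identical over 1048 aligned coding positions and shared a run of 34 bases, at coding positions 133 to 166 of both. *FPR1* and *FPR3* were 71.6% identical, with a run of 28 bases. For *GPR37* and *GPR37L1* the identity was 67.9% and the longest run 14 bases. *CMKLR1* against *GPR1* (61.0%, 12 bases), *LTB4R* against *LTB4R2* (61.0%, 16 bases), and *LGR6* against *LGR5* (64.2%, 18 bases) and *LGR4* (56.5%, 14 bases) shared no longer runs than that of *FPR1* and *FPR2*. *FPR1* thus had the longest runs in common with a relative among the 7 pairs compared, and the study's methods do not say how reads with several alignments were treated. A coding read longer than the longest shared run holds bases that differ between the relatives. Untranslated parts were not compared.

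The deposited values are TPM, in which counts are divided by gene length before each library is brought to the same total, so levels can be compared between genes, within the limit that the gene lengths used are not given in the sources used here. If they were not those of the macaque transcripts, every fold between genes given here would change with the lengths, whereas a gene's ratio between the libraries would change only by a factor common to all genes. Each library summed to 1000000 TPM and the total reads are unknown. Dividing the Rep1 value of a gene by its Rep2 value gives, however, a quotient of whole reads multiplied by a factor common to all genes. The values fix this factor only up to a ratio of small whole numbers, and the candidate with the smallest read numbers over all genes was taken. It was 17.2, so 1 read of a gene in Rep1 carried as much TPM as 17.2 reads of it in Rep2. With this factor the read numbers were whole with a product under 100000000 for 99.9% of the 10168 genes above 0 in both libraries. That share was not computed for the other candidates. The smallest read numbers that fit a gene are given below, and are lower bounds only if this factor holds. Rep1 stood apart from Rep2. It listed 6425 genes at 0 (38.5%) against 2082 (12.5%), and the summed level of 8 retinal genes was 3325 TPM in Rep1 and 20.8 TPM in Rep2. With 1 condition there was no comparison between groups, and an exact two-sided sign test over 2 libraries gives no p below 0.5, so the values below are descriptions with their spread.

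**Figure D1:**
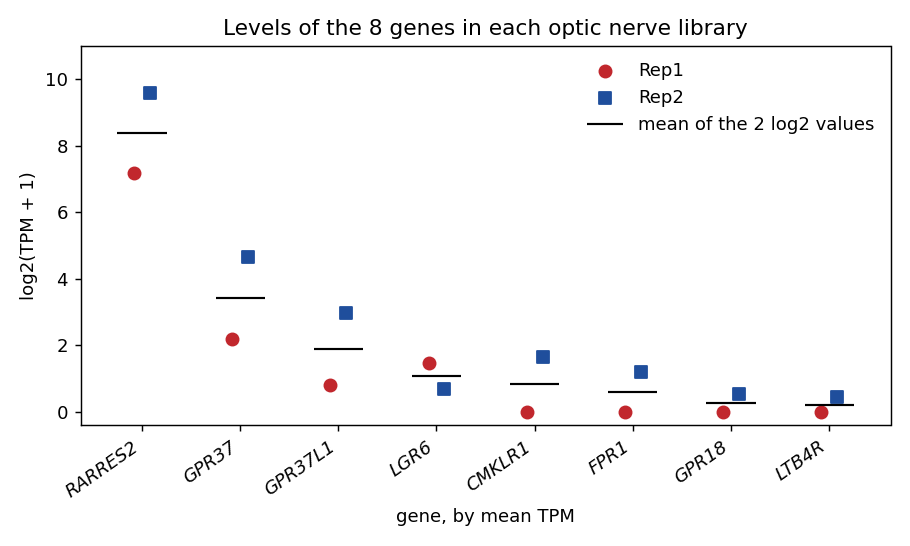
Level of each of the 8 genes as log2(TPM + 1) (vertical axis), with the genes in order of mean TPM, a circle for Rep1, a square for Rep2 and a line for the mean of the log2 values. *RARRES2* stands above all others in both libraries, 4 receptors lie at 0 in Rep1, and *LGR6* is the only gene of the 8 with the circle above the square.

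*RARRES2*, the gene of chemerin, was by far the most abundant of the 8 genes, and the genes of chemerin receptors were far below it. Its position in Mmul_10, the build used throughout, is chromosome 3, 176286593 to 176289990, minus strand. Rep1 had 144 TPM and Rep2 760 TPM, from at least 108 and 9779 reads, with a mean of 452 ± 435 TPM (SD, n = 2 libraries). By this mean it ranked at percentile 97.9 among the 14693 genes that were above 0 in some library. Both libraries had it near the top, at percentile 92.5 in Rep1 and 99.3 in Rep2, although the values differed 5.27-fold.

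*CMKLR1* (chromosome 11, 107897507 to 107968946, minus strand), the signalling receptor of chemerin, was listed at 0 in Rep1 and at 2.16 TPM in Rep2. In Rep2 the TPM of the ligand was thus 352 times that of this receptor, on the gene lengths the authors used. The other proteins known to bind chemerin were described from a list made beside the 8 genes. *GPR1*, also called *CMKLR2*, was above 0 in both libraries, with 5.81 and 11.8 TPM in Rep1 and Rep2, and in Rep2 it was 5.45 times the level of *CMKLR1*. The TPM of *RARRES2* was 24.8 times that of *GPR1* in Rep1 and 64.6 times in Rep2. *CCRL2*, which binds chemerin without known signalling, was listed at 0 in Rep1 and at 0.676 TPM in Rep2. Of the 3 chemerin-binding receptors, only *GPR1* was thus above 0 in Rep1.

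The receptors known from glia came next. *GPR37* (chromosome 3, 151129744 to 151149613, minus strand) had 3.60 TPM in Rep1 and 24.0 TPM in Rep2, from at least 11 and 1263 reads, with a mean of 13.8 ± 14.4 TPM (SD, n = 2) at percentile 56.8. *GPR37L1* (chromosome 1, 59564316 to 59570508, plus strand) had 0.750 TPM in Rep1 and 6.87 TPM in Rep2, from at least 5 and 788 reads, with a mean of 3.81 ± 4.33 TPM (SD, n = 2) at percentile 35.1. Both genes were lower in Rep1 than in Rep2, and the SD of each exceeded its mean. Their order was the same in both libraries, with *GPR37* at 4.80 times the level of *GPR37L1* in Rep1 and 3.50 times in Rep2. *PSAP*, which encodes prosaposin, was far above both receptors, with 164 and 716 TPM in Rep1 and Rep2.

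*LGR6* lies on chromosome 1 from 59631558 to 59756786 on the plus strand, 61049 bases from *GPR37L1*. Of the 8 genes it alone was higher in Rep1, at 1.77 TPM against 0.617 TPM in Rep2, a 2.86-fold difference of TPM, with a mean of 1.19 ± 0.813 TPM (SD, n = 2) at percentile 21.6. Of the 14693 genes, 24.1% were higher in Rep1. The smallest read numbers were 1 in Rep1 and 6 in Rep2, so the value in Rep1 may rest on as little as a single read. The retinal genes were also higher in Rep1, 6 of 8 by gene and 160-fold in sum, and their part in the level of *LGR6* was not tested.

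The receptors best known from leukocytes were at the low end. *FPR1* (chromosome 19, 51493983 to 51500246, minus strand) was at 1.29 TPM in Rep2. *GPR18* (chromosome 17, 80984891 to 80992500, minus strand) was at 0.441 TPM in Rep2. *LTB4R* (chromosome 7, 86401806 to 86407292, plus strand) was at 0.356 TPM in Rep2. All 3 were listed at 0 in Rep1, which makes 4 of the 8 genes with *CMKLR1*. Among all genes above 0 in Rep2, 30.4% were listed at 0 in Rep1. The share was 42.6% for genes from 1 to under 10 TPM in Rep2, where 2 of 3 of the 8 genes (*CMKLR1* and *FPR1*, not *GPR37L1*) were at 0. It was 75.3% for genes from 0.1 to under 1 TPM, where 2 of 3 (*GPR18* and *LTB4R*, not *LGR6*) were at 0. A zero in Rep1 was therefore frequent at these levels and does not show that the transcript was missing.

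Marker genes of neutrophils and lymphocytes were similarly scarce. The 7 listed neutrophil markers summed to 0.423 TPM in Rep1 and 4.99 TPM in Rep2, with 6 and 2 of them at 0. *CXCR2* and *ELANE* were listed at 0 in both libraries, whereas *S100A9* (2.49 TPM) and *MPO* (1.91 TPM) were the highest in Rep2. The 8 lymphocyte markers summed to 0.814 and 5.61 TPM, with 7 and 2 at 0. *CD3E* and *MS4A1* were at 0 in both, whereas *IL7R* (2.11 TPM) and *CD3D* (1.45 TPM) were the highest in Rep2. Microglia and macrophage markers, by contrast, summed to 194 TPM in Rep1 and 334 TPM in Rep2, although *TMEM119* and *ITGAM* were listed at 0 in Rep1. The part of any of these cells in the receptor levels was not tested.

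*GPR18* lies within *UBAC2*, a gene on the opposite strand with 25.5 and 72.6 TPM in Rep1 and Rep2, and *LTB4R* overlaps *CIDEB*, also on the opposite strand, listed at 0 in Rep1 and at 7.79 TPM in Rep2. None of the annotated exonic bases of *GPR18* or *LTB4R* is shared with an exon of these genes. The use of strand in counting is not given in the sources used here, so reads of unspliced or extended transcripts of the partner cannot be told apart from reads of the receptor. *LGR6* and *CMKLR1* overlap uncharacterized genes in the annotation, likewise with 0 shared exonic bases. Their levels, all under 3 TPM in either library, are uncertain to that extent.

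Put in order of mean TPM, the 8 genes ran *RARRES2*, *GPR37*, *GPR37L1*, *LGR6*, *CMKLR1*, *FPR1*, *GPR18* and *LTB4R*. Of the 7 pairs of neighbours, 2 differed in the same direction in both libraries by more than the SD of their difference. *RARRES2* was above *GPR37* by 4.95 ± 0.039 (SD, n = 2) on the log2(TPM + 1) scale, and *GPR37* was above *GPR37L1* by 1.53 ± 0.19. The remaining 5 pairs did not meet this rule, which a pair with both genes at 0 in Rep1 could not meet. *GPR37L1* was above *LGR6* by 2.28 in Rep2 and below it by 0.66 in Rep1, and *LGR6* was above *CMKLR1* in Rep1, where the latter was listed at 0, and below it by 0.96 in Rep2. The order of *CMKLR1*, *FPR1*, *GPR18* and *LTB4R* rests on Rep2 alone, since all 4 were listed at 0 in Rep1.

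**Figure D2:**
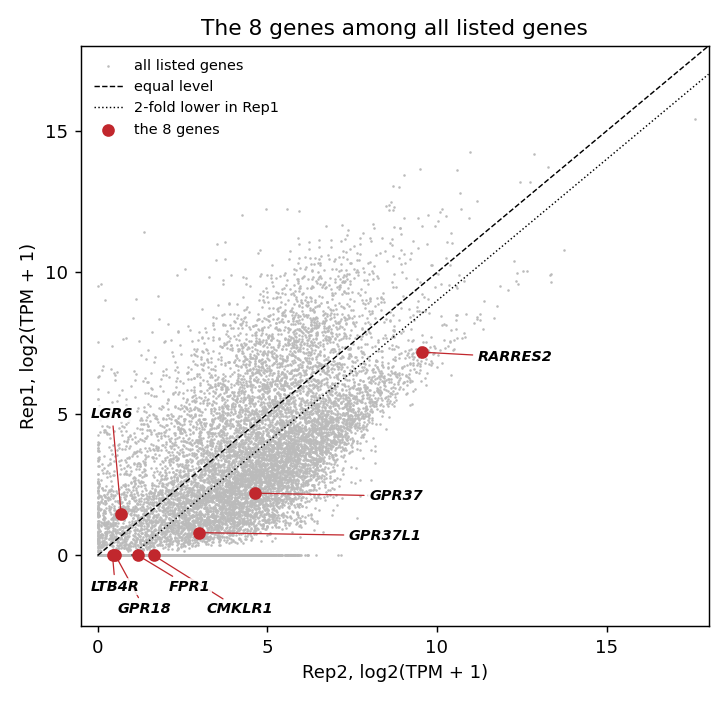
Each listed gene as a grey point at log2(TPM + 1) in Rep2 (horizontal axis) and Rep1 (vertical axis), with the 8 genes in red, a dashed line for equal levels and a dotted line for a 2-fold lower level in Rep1. *RARRES2*, *GPR37*, *GPR37L1*, *CMKLR1* and *FPR1* lie below the dotted line, and *LGR6* lies above the dashed one.

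Between the libraries, 5 of the 8 genes were at least 2-fold lower in Rep1 on the log2(TPM + 1) scale, where the pseudocount shrinks differences between small values. The share was 51.3% over the 14693 genes. None was at least 2-fold higher in Rep1, against 14.8% of all genes. The log2 difference (Rep1 minus Rep2) was -2.39 for *RARRES2*, -2.45 for *GPR37* and -2.17 for *GPR37L1*, and the other two were *CMKLR1* and *FPR1*, which were listed at 0 in Rep1, so that the size of their difference is set by the pseudocount. These sit beside a general shift of -1.19 of Rep1 against Rep2, the log2 ratio of the size factors by the median of ratios. After scaling by them, 4 of the 8 genes were at least 2-fold lower in Rep1 (33.8% of all genes) and 1 was at least 2-fold higher (23.7%). The 4 lower genes were *RARRES2* at -1.20, *GPR37* at -1.39, *GPR37L1* at -1.38 and *CMKLR1*, and the higher gene was *LGR6* at 1.38.

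Levels were also set against marker genes of the cell types of the nerve within each library, which removes the effect of the library total. All 8 oligodendrocyte, all 8 astrocyte and all 8 fibroblast markers were lower in Rep1, and their sums were 4.61, 6.64 and 8.97 times as high in Rep2. Of the markers of pericytes and smooth muscle 7 of 8 were lower in Rep1 (sums of 238 and 1189 TPM), and of the endothelial markers 6 of 8 (58.4 and 140.0 TPM). The ratios of Rep2 to Rep1 were 5.27 in *RARRES2*, 6.68 in *GPR37* and 9.17 in *GPR37L1*. *GPR37* had 0.0780 TPM per 1000 TPM of oligodendrocyte markers in Rep1 and 0.113 in Rep2, a 1.45-fold difference. *GPR37L1* had 0.679 TPM per 1000 TPM of astrocyte markers in Rep1 and 0.937 in Rep2, a 1.38-fold difference. For *RARRES2* the values per 1000 TPM of fibroblast markers were 75.1 in Rep1 and 44.1 in Rep2, 1.70-fold higher in Rep1. *MBP* made up most of the oligodendrocyte sum, with 43721 of 46086 TPM in Rep1 and 199595 of 212682 TPM in Rep2. Without the marker of highest mean (*MBP*, *GFAP* and *DCN*), the ratio of Rep2 to Rep1 was 1.21 for *GPR37*, 1.36 for *GPR37L1* and 0.725 for *RARRES2*. The combinations with the most equal values were found after all lists had been seen, and were not those of the best known cell source. *RARRES2* had 607 and 639 TPM per 1000 TPM of pericyte and smooth muscle markers in Rep1 and Rep2, *GPR37* had 3.26 and 3.28 per 1000 TPM of astrocyte markers, and *GPR37L1* had 0.391 and 0.399 per 1000 TPM of fibroblast markers. The libraries thus differed less than 2-fold in these genes once set against these lists, namely those of oligodendrocytes, astrocytes, fibroblasts, and pericytes and smooth muscle. Against the microglia and macrophage markers the ratio of Rep2 to Rep1 was 3.06 for *RARRES2*, 3.88 for *GPR37* and 5.32 for *GPR37L1*. These ratios depended on *AIF1*, the marker of highest mean and the only one higher in Rep1 (113 against 64.5 TPM). Without *AIF1*, *RARRES2* had 1777 and 2819 TPM per 1000 TPM of these markers in Rep1 and Rep2, less than 2-fold apart. *GPR37* then had 44.3 and 89.2, and *GPR37L1* 9.24 and 25.5, each more than 2-fold apart. Against the endothelial markers the ratio of Rep2 to Rep1 was 2.20, 2.79 and 3.83 for the same genes. Against the lymphocyte markers, 7 of 8 at 0 in Rep1, it was 0.766, 0.971 and 1.33, so a list with little signal also stayed under 2-fold. Against the neutrophil markers, 6 of 7 at 0 in Rep1, it was 0.447, 0.566 and 0.777, and against the retinal genes 843, 1069 and 1468. *LGR6* was not within 2-fold, with 7.44 and 0.519 TPM per 1000 TPM of pericyte and smooth muscle markers. With 2 libraries no assignment of a gene to a cell type can be made, and these ratios are descriptions.

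**Figure D3:**
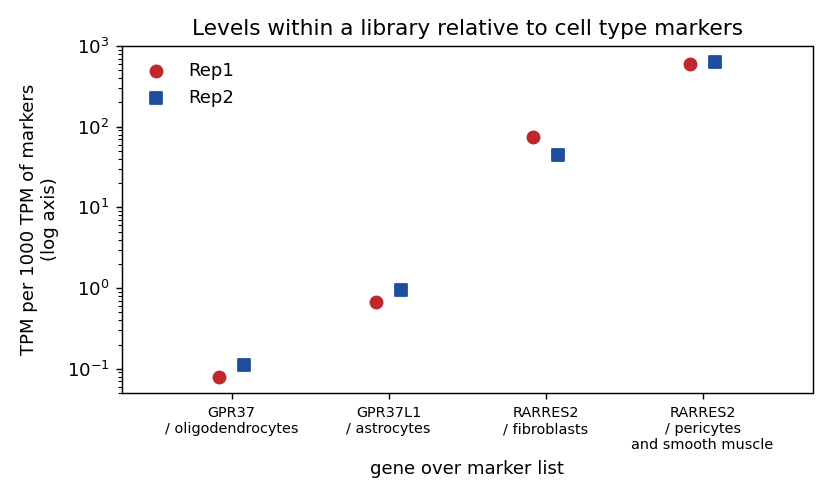
TPM of a gene per 1000 TPM of summed markers of a cell type (vertical log axis) for 4 combinations of gene and marker list, with a circle for Rep1 and a square for Rep2. The symbols of each combination lie within 2-fold of each other, from 0.0780 and 0.113 for *GPR37* over oligodendrocyte markers to 607 and 639 for *RARRES2* over markers of pericytes and smooth muscle.

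Genes around these receptors were described from 4 further lists. Among the ligands and their source proteins, *ANXA1*, whose protein annexin A1 gives peptides that act on formyl peptide receptors, had 86.9 TPM in Rep1 and 841 TPM in Rep2. *LTA4H*, the enzyme that makes leukotriene B4, was close to equal in the libraries, at 23.5 and 21.7 TPM. In Rep2 the transcripts of annexin A1, chemerin and prosaposin were thus at 716 TPM or more, whereas the most abundant receptor of the 8 genes, *GPR37*, was at 24.0 TPM.

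Of 8 related or alternative receptors, 6 were listed at 0 in Rep1 and 2 in both libraries, namely *GPR32* and *GPR101*, which have been proposed as resolvin receptors. Of all listed genes 38.5% were at 0 in Rep1, and the share was higher among genes low in Rep2, as given above. In Rep2, *FPR2* was at 2.09 TPM, 1.62 times *FPR1*, and *LTB4R2*, the low-affinity leukotriene B4 receptor, was at 3.51 TPM, 9.86 times *LTB4R*. *RORA*, a nuclear receptor that has been linked to maresin 1, was the highest of this list and went the other way, with 627 and 37.0 TPM in Rep1 and Rep2.

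LGR6 is also a receptor of R-spondins, secreted proteins that strengthen Wnt signalling by removing the ubiquitin ligases ZNRF3 and RNF43. *RSPO2* (17.6 and 35.1 TPM in Rep1 and Rep2) and *RSPO3* (6.12 and 28.1 TPM) were above 0 in both libraries, *RSPO1* in Rep2 alone (2.71 TPM) and *RSPO4* in neither. *LGR4* was above *LGR6* in both libraries, with 3.15 and 16.8 TPM in Rep1 and Rep2, which is 1.78 and 27.3 times *LGR6*. *LGR5* was below *LGR6* in Rep1 (0.361 TPM) and above it in Rep2 (1.79 TPM). Of the 8 genes of this list, 4 were 2-fold or more below their Rep2 level in Rep1, 0 exceeded it by 2-fold and 4 differed less, beside 51.3% and 14.8% of all genes lower and higher. The median log2 difference of the 7 genes above 0 was -1.03, beside -1.07 over the 14693 genes.

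Of 6 partners through which such receptors signal, 4 had a level at least 2-fold higher in Rep1 and 2 a level at least 2-fold lower, beside 14.8% and 51.3% of all genes. *GNAI2* was the most abundant of them, a G protein subunit that lowers cyclic AMP, with 1115 and 128 TPM in Rep1 and Rep2. The other two were lower there, *GNAI1* with 11.7 and 173 TPM and *ARRB1*, an arrestin, with 2.89 and 31.1 TPM. The family members *GNAI1* and *GNAI2* thus had opposite orders in the libraries, with log2 differences of -3.78 and 3.11 beside the general shift of -1.19.

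**Figure D4:**
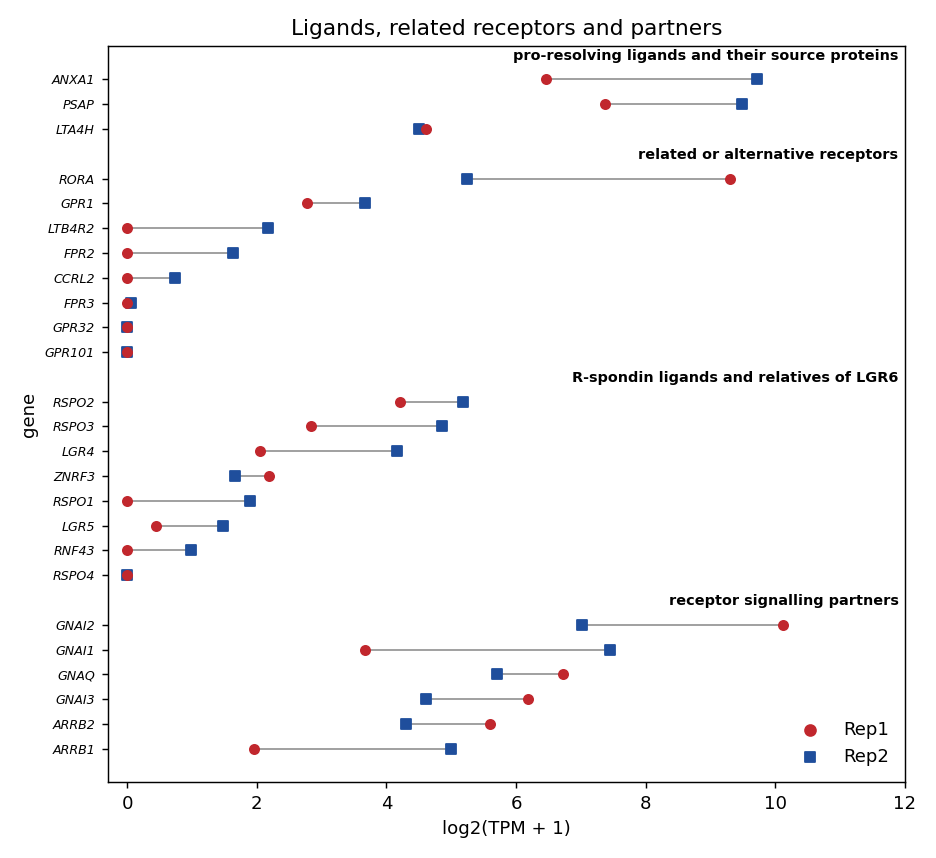
log2(TPM + 1) (horizontal axis) of the 25 genes of the 4 further lists, with a circle for Rep1, a square for Rep2 and a line between them. *ANXA1* and *PSAP* lead their list, most related receptors lie at 0 in Rep1, and *RORA* and *GNAI2* have the circle far to the right of the square.

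The genes nearest to a member in level were found by the Euclidean distance on log2(TPM + 1) over the 2 libraries, which measures likeness of level only. For *RARRES2* they were *CD74* (distance 0.10), *ANXA5* (0.11) and *FEZ1* (0.15). For *GPR37* they were *TMEM245*, *LRP3* and *TBC1D25*, at 0.023 to 0.051. For *GPR37L1* they were *SLC16A5*, *MOCS1* and *MON2*, at 0.025 to 0.032, and for *LGR6*, *DHRS13*, *CA1* and *SELE*, at 0.072 to 0.12. Members at 0 in Rep1 were not matched in this way, since many genes tie there.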

How the data were processed

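Macaque optic nerve RNA was sequenced from 2 libraries of 1 condition. The authors used FastQC 0.11.9, Trim Galore 0.6.6, STAR 2.7.1a with the Mmul_10 genome and featureCounts 1.5.3, and deposited TPM per gene and library, not pooled. The columns Rep1 and Rep2 are not tied to single samples and were used as replicates. Members and lists were chosen with earlier results of these data known. Named genes were the 8 members, the genes of the fixed lists and the 3 genes nearest to each member above 0 in both libraries.

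Means, SDs, percentiles and differences on log2(TPM + 1) were computed. Smallest read numbers were fitted with a tolerance of 1e-12. The step was also run on simulated data with set depths, a run that does not show which factor holds in these data. Markers of 9 cell types were summed, of which *FCGR3A* was not analysed here. Coding sequences of RefSeq transcripts of Mmul_10 were aligned globally with Biopython 1.88 (match 2, mismatch -1, gap -5 to open and -1 to extend). Python 3.11.15, numpy 2.4.6, pandas 2.3.3 and matplotlib 3.10.9 were used. As alternatives, the pseudocount was set to 0.1, libraries were scaled by size factors (median of ratios), the 10 genes with the highest mean were removed, geometric means were taken, percentiles were ranked in other gene sets, and each library was used alone. Marker sums were also taken without the marker of highest mean. Without read totals no counting interval can be given.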

Additional observations from a re-analysis of the deposited data

How the results depend on the processing

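No paired analysis was possible because only 1 condition was sequenced. Over 35 results and leaving the single libraries aside, 59 of 77 recomputed values moved by less than the spread allowed for them and 18 moved further. With a single library the order turned for *GPR37L1* and *LGR6* (-0.66 in Rep1) and for *LGR6* and *CMKLR1* (-0.96 in Rep2), pairs that did not differ beyond their spread. With a pseudocount of 0.1 the difference between *RARRES2* and *GPR37* was 5.13, between *GPR37* and *GPR37L1* 1.96 and between *GPR18* and *LTB4R* 0.12, on a log2 scale that is then wider for small values. Size factors gave 4.99 for *RARRES2* and *GPR37*, whose SD over the libraries is only 0.039. The number of genes at least 2-fold lower in Rep1 ran from 4 of 8 with size factors, without *FPR1*, to 7 with a pseudocount of 0.1, which added *GPR18* and *LTB4R*. The mean of *RARRES2* ran from 331 to 590 TPM and that of *GPR37* from 9.30 to 18.1 TPM over scaling and averaging, and the single libraries gave 144 to 760 TPM and 3.60 to 24.0 TPM. The log2 difference of *LGR6* (Rep1 minus Rep2) moved from 0.78 to 1.38 both with a pseudocount of 0.1 and with size factors. Ranked only among genes averaging 1 TPM or more, *GPR37* was at percentile 46.0, *GPR37L1* at 18.9 and *CMKLR1* at 0.847. Each of 2 libraries always lies the same fraction of an SD from their mean, so the single libraries say nothing about the stability of a mean. The levels of *CMKLR1*, *FPR1*, *GPR18* and *LTB4R* rest on Rep2 alone and that of *LGR6* may rest on few reads. If the fitted factor holds, 1 read of a gene in Rep1 carried as much TPM as 17.2 reads in Rep2. The total reads are unknown, and the cause of the zeros in Rep1 was not tested.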
